A study of Eucalyptus grandis
Pisolithus microcarpus and Eucalyptus grandis with 23 samples.

Results

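In this collection of root RNA-seq libraries, 151 of 36376 genes of Eucalyptus grandis stood higher in every root library made with an ectomycorrhizal fungus than in every library made without one. These 151 members were chosen by the measured values themselves. A gene belongs to the group when its lowest level over the 12 mycorrhizal libraries exceeds its highest level over the 11 control libraries and its highest level is at least 1 CPM. CPM is the count of reads assigned to a gene per 1000000 gene reads of the library, here after the gene Eucgr.B01584.1 was left out of the sum. The members make up 0.546% of the 27645 genes that reach 1 CPM in a library, and the same rule turned round, lower in every mycorrhizal library, finds 120 genes or 0.434%. Because the rule used the mycorrhizal and control levels, the distance between them is described below and is not tested.

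An ectomycorrhiza is a joint organ of a tree root and a soil fungus. The fungus wraps the root tip in a mantle and grows between the outer root cells, where it passes mineral nutrients and water to the plant and receives sugars. Forming it takes reprogramming of root cells, and Pisolithus is a genus of such fungi commonly found with eucalypts.

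Seedlings aged 1 month were kept in vitro, each alone in a Petri dish of mineral medium (MMN) with glucose, for 1 further month. Mycorrhizal plants had a small square of Pisolithus microcarpus mycelium, of strain SI-9 or strain SI-12, laid on the root, and control plants were grown axenically, without fungus. Each kind was held at 400 or 650 ppm CO2 throughout. The 23 libraries are 6 of control roots at 400 ppm, 5 of control roots at 650 ppm, and 3 of each strain at each CO2 level. The labels give no allele and no other treatment. The root was the labelled tissue, and its markers could not be checked, because the reference table held 0 of the 36376 gene IDs and the files pair them with no names. For the same reason the members are given by ID, without roles and without sequences. In whole roots a change in how many cells of a type are present and a change in RNA per cell cannot be told apart. Only mycorrhizal roots held fungus, and how reads were aligned is not given. Any fungal reads counted for a plant gene therefore cannot be told from reads of the plant, which was not tested.

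Gene reads per library ran from 4497662 to 24647735 in mycorrhizal roots and from 9482961 to 30210474 in control roots, so 3 reads equal 0.0995 to 0.683 CPM. Libraries of a group fell into near-identical sets. Within a set, the coefficient of variation that counting noise does not explain was 0.059 to 0.158 between pairs of libraries, and between sets of the same group it was 0.245 to 0.52. There are 10 such sets, 6 mycorrhizal and 4 control. SI-9 library 2 at 400 ppm and SI-9 library 3 at 650 ppm each stand apart from the other 2 libraries of their group, while all SI-12 libraries of a CO2 level belong to 1 set. SI-9 library 2 at 400 ppm lay between the other 2 SI-9 libraries and all 3 SI-12 libraries of that CO2 level for 73 of the 151 members (48.3%), and for 34.8% of the tested genes with a CPM. SI-9 libraries 1 and 3 each did so for 6 members (3.97%), and for 5.4% and 5.49% of those tested genes. Whether SI-9 library 2 was mixed or carries a wrong label was not tested, and every SI-9 mean and strain difference at 400 ppm depends on it. The labels call the libraries biological replicates, and nothing says they came from separate dishes, so p-values measure the spread between libraries, which inside a set may be technical. SI-9 libraries carry the numbers 1 to 12 in the deposited names and SI-12 libraries 13 to 24, with controls in both ranges. Among mycorrhizal libraries strain and range of numbers therefore coincide. A fit with the range as a block takes the difference between the ranges from the control libraries alone, and its values are given beside the strain differences they change.

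The members differed widely in how far the mycorrhizal libraries stood from the control libraries. The gap, the lowest mycorrhizal CPM divided by the highest control CPM, had a median of 1.099 over the 151 members and was under 1.1 in 76 of them. It reached 1.5 in 24 members and 2 in 16. In 131 members at least 1 control library reached 1 CPM. For these the mean of the 4 mycorrhizal group means was 1.153 to 41.0 times the mean of the 2 control group means, with a median of 2.089, and 76 of the 131 were at 2-fold or more. The other 20 members, called near silent below, stayed under 1 CPM in all 11 control libraries, and 10 of these 20 reached 10 CPM in a mycorrhizal library. The name stands for this threshold alone. Eucgr.D01901.1, 1 of the 20, had reads in all 11 controls, up to 0.8747 CPM, against a lowest mycorrhizal value of 0.9109 CPM.

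**Figure D1:**
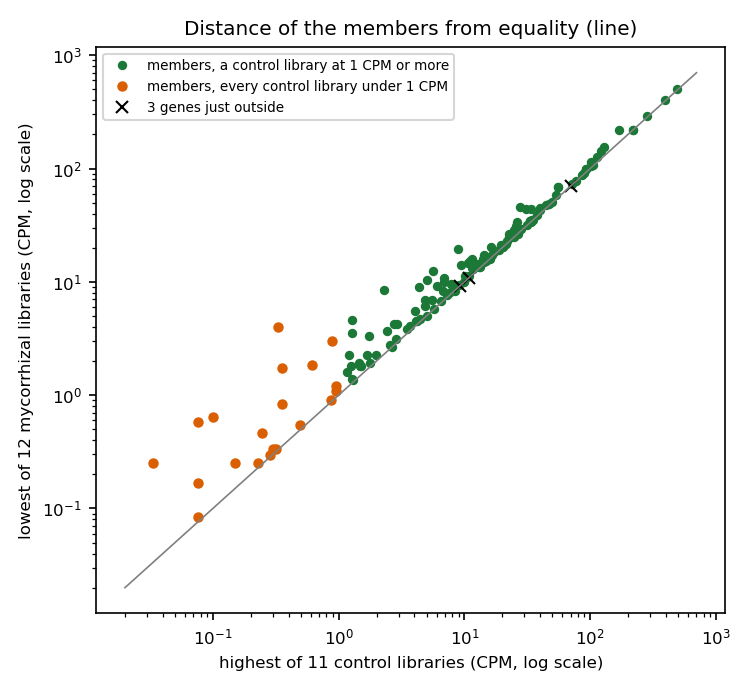
Highest CPM over the 11 control libraries (horizontal, log scale) against lowest CPM over the 12 mycorrhizal libraries (vertical, log scale), 1 point per member, with equality as a line and 3 genes that just missed the rule as crosses. Most of the 131 green members lie close above the line, with a median gap of 1.099 over all members, and the 20 members under 1 CPM in controls (orange) reach from the line to a gap of 12.01.

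The number of genes that met the rule depended on single libraries and on scaling. Leaving out a library relaxes the rule, so it could only add genes, and all 151 members were kept each time. SI-9 library 3 at 650 ppm held the lowest mycorrhizal value of 30 members, more than any other mycorrhizal library, and without it 216 genes met the rule. Control libraries 5 and 4 at 400 ppm held the highest control value of 24 and 23 members. With CPM scaled by TMM factors, which correct for a few very abundant genes, 115 of the 151 members still met the rule and 36 did not.

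At the edge of the rule, Eucgr.A02498.1 had a lowest mycorrhizal value of 5.01 CPM and a highest control value of 5.007 CPM. The pair was 8.367 and 8.359 CPM for Eucgr.A00795.1, and 15.94 and 15.91 CPM for Eucgr.J00191.1. Just outside, Eucgr.K02836.1 had 70.48 and 70.49 CPM, Eucgr.D00407.1 had 10.85 and 10.86 CPM, and Eucgr.J02358.1 had 9.139 and 9.152 CPM. All 3 inside the rule dropped out with TMM scaling.

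Of the 6 members with the largest gap, 5 stayed under 1 CPM in every control library. Eucgr.H01083.1 had 0.0378 to 0.331 CPM in the 6 control libraries at 400 ppm, with a median of 0.155, and 0, 0.212, 0, 0.0417 and 0 CPM in the 5 at 650 ppm. It had 20.5, 44.0 and 20.8 CPM in SI-9 roots at 400 ppm and 32.8, 30.7 and 3.97 CPM at 650 ppm. In SI-12 roots it had 54.6, 65.1 and 59.0 CPM at 400 ppm and 17.6, 19.2 and 16.9 CPM at 650 ppm. Its lowest mycorrhizal library, SI-9 library 3 at 650 ppm, was thus still 12.01 times its highest control, which rests on 7 reads.

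Eucgr.C01090.1 had 5 reads over all 11 control libraries, in 3 of them. It had 8.43, 13.3 and 5.13 CPM in SI-9 roots at 400 ppm, 1.51, 1.63 and 0.585 CPM in SI-9 roots at 650 ppm, 19.8, 20.2 and 16.9 CPM in SI-12 roots at 400 ppm, and 6.85, 6.76 and 5.68 CPM in SI-12 roots at 650 ppm. The SI-12 libraries at 400 ppm were the highest and the SI-9 libraries at 650 ppm the lowest of the 12, without overlap with the others, and 82.71% of its reads were unique to the gene. Eucgr.D00514.1 had 1 read over the 11 controls. Its CPM were 3.19, 4.67 and 2.16 in SI-9 roots at 400 ppm and 3.58, 2.20 and 0.251 at 650 ppm, and in SI-12 roots 6.07, 7.66 and 8.74 at 400 ppm and 1.97, 1.61 and 1.57 at 650 ppm. The 0.251 CPM of SI-9 library 3 at 650 ppm stands for 6 reads.

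Eucgr.L01870.1 stayed low in all roots, with 4 reads over the controls. Its mean was 0.836 ± 0.0681 CPM (SD, n = 3) in SI-9 roots at 400 ppm, 1.48 ± 0.939 CPM in SI-9 roots at 650 ppm, 2.10 ± 0.980 CPM in SI-12 roots at 400 ppm and 1.07 ± 0.686 CPM in SI-12 roots at 650 ppm. Eucgr.A01731.1 had 39 reads in 8 of the 11 controls, at 0 to 0.284 CPM at 400 ppm and 0.106 to 0.353 CPM at 650 ppm. It averaged 5.08 ± 4.14 CPM in SI-9 roots at 400 ppm, 4.53 ± 0.942 CPM in SI-9 roots at 650 ppm, 17.7 ± 2.00 CPM in SI-12 roots at 400 ppm and 2.06 ± 0.272 CPM in SI-12 roots at 650 ppm. Eucgr.A02109.1 was the best covered of the 6 in control roots, with 248 reads. It had 1.09 to 2.31 CPM in controls at 400 ppm with a median of 1.53, 0.166 to 0.417 CPM at 650 ppm, and 8.44 to 42.2 CPM in mycorrhizal roots, with the 3 SI-12 libraries at 400 ppm, at 38.8 to 42.2 CPM, above all others.

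**Figure D2:**
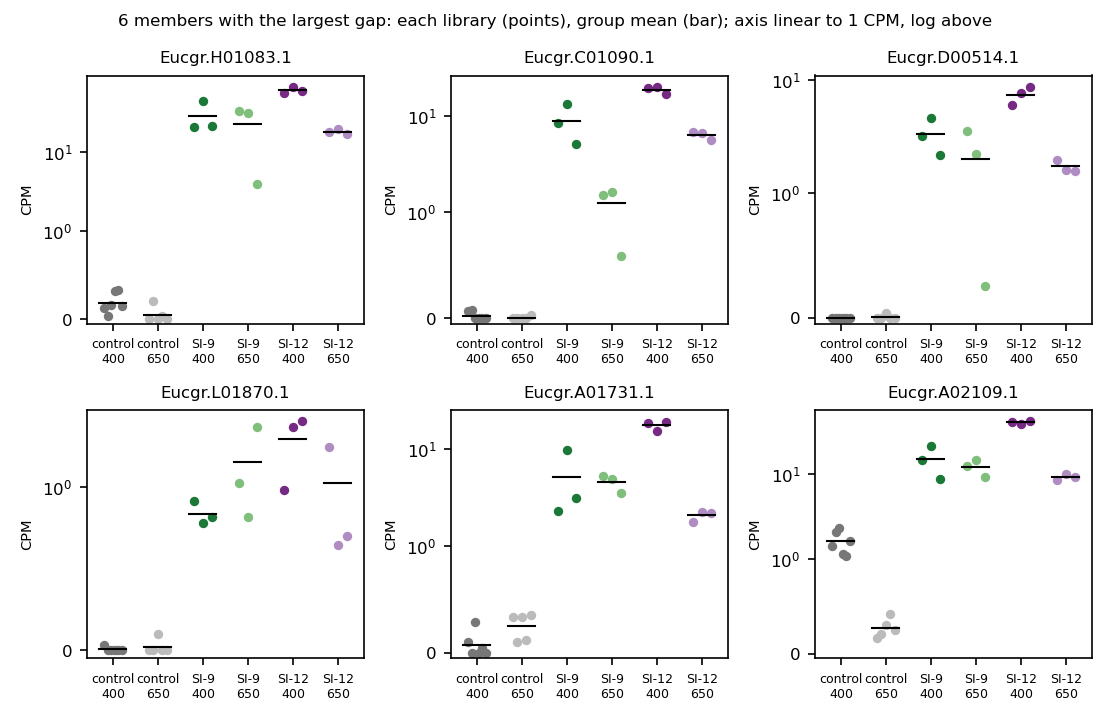
CPM of the 6 members with the largest gap in each of the 23 libraries (points) with group means (bars), on an axis that is linear to 1 CPM and logarithmic above. In 5 of the 6 panels all 3 SI-12 libraries at 400 ppm are the highest of all, and SI-9 library 3 at 650 ppm is the lowest SI-9 library in the panels of Eucgr.H01083.1, Eucgr.C01090.1 and Eucgr.D00514.1.

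The 6 members with the highest mean CPM in mycorrhizal roots were expressed in every library, and in 4 of them mycorrhizal and control roots lay close together. Eucgr.G02468.1, the highest, had 471.0 to 489.3 CPM in controls at 400 ppm with a median of 481.6, 397.8 to 427.9 CPM in controls at 650 ppm, and 504.2 to 627.9 CPM in mycorrhizal roots, a ratio of group means of 1.278. The ratio was 1.185 for Eucgr.H04551.1, 1.221 for Eucgr.H02737.1 and 1.153 for Eucgr.A02641.1, and these 3 no longer met the rule with TMM scaling. Eucgr.I01444.1 had 81.1 to 169.6 CPM over the controls and 219.9 to 353.8 CPM over the mycorrhizal libraries, with a ratio of 2.089. Per length, in the deposited RPKM, which divides reads by gene length and by the library's gene reads, the mean over the mycorrhizal groups was 496.1 for Eucgr.G02468.1, 446.4 for Eucgr.H04551.1, 304.6 for Eucgr.D00882.1, 226.4 for Eucgr.H02737.1, 165.8 for Eucgr.I01444.1 and 148.4 for Eucgr.A02641.1.

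Eucgr.D00882.1 varied most among these 6. Its 6 control libraries at 400 ppm lay at 87.8 to 121.3 CPM with a median of 107.4, and the 5 at 650 ppm at 56.5 to 69.9 CPM. SI-9 roots had 225.7, 412.2 and 205.4 CPM at 400 ppm and 145.4, 142.1 and 172.3 CPM at 650 ppm, and SI-12 roots had 664.9, 642.7 and 631.2 CPM at 400 ppm and 162.1, 170.2 and 176.6 CPM at 650 ppm. The 400 ppm libraries of each kind of root lay above all of its 650 ppm libraries. Its log2 fold change under 650 ppm was -0.75 (SE 0.13, adjusted p = 0.000142) in control roots, -0.86 (SE 0.18, adjusted p = 0.00136) in SI-9 roots and -1.94 (SE 0.18, adjusted p = 1.28e-07) in SI-12 roots. Tests in this text are edgeR's quasi-likelihood test over all 27386 genes with enough reads, 2-sided, with Benjamini-Hochberg adjustment and a threshold of 0.05, and all 151 members were among the genes tested.

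The 151 genes together had 3527 to 4270 CPM in control libraries and 6471 to 8269 CPM in mycorrhizal libraries, with the 3 SI-12 libraries at 400 ppm highest at 8086 to 8269 CPM. The 20 members that were near silent in controls summed to 1.945 to 3.967 CPM there. They summed to 301.5 to 315.4 CPM in SI-12 roots at 400 ppm, 92.26 to 100.3 CPM in SI-12 roots at 650 ppm, 88.87 to 196.7 CPM in SI-9 roots at 400 ppm and 38.19 to 94.89 CPM in SI-9 roots at 650 ppm. The 196.7 CPM belong to SI-9 library 2 at 400 ppm and the 38.19 CPM to SI-9 library 3 at 650 ppm, the libraries that stand apart from their groups. Without them SI-9 roots lay at 88.87 and 96.78 CPM at 400 ppm and at 89.55 and 94.89 CPM at 650 ppm.

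Of the 4 mycorrhizal groups, SI-12 roots at 400 ppm had the highest mean for 67 members (44.4%), against 28.5% of all tested genes. The share was 24.5% against 28.2% for SI-12 at 650 ppm, 21.9% against 18.6% for SI-9 at 650 ppm and 9.27% against 24.7% for SI-9 at 400 ppm. Among the 20 near-silent members 16 were highest in SI-12 roots at 400 ppm and 4 in SI-12 roots at 650 ppm.

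**Figure D3:**
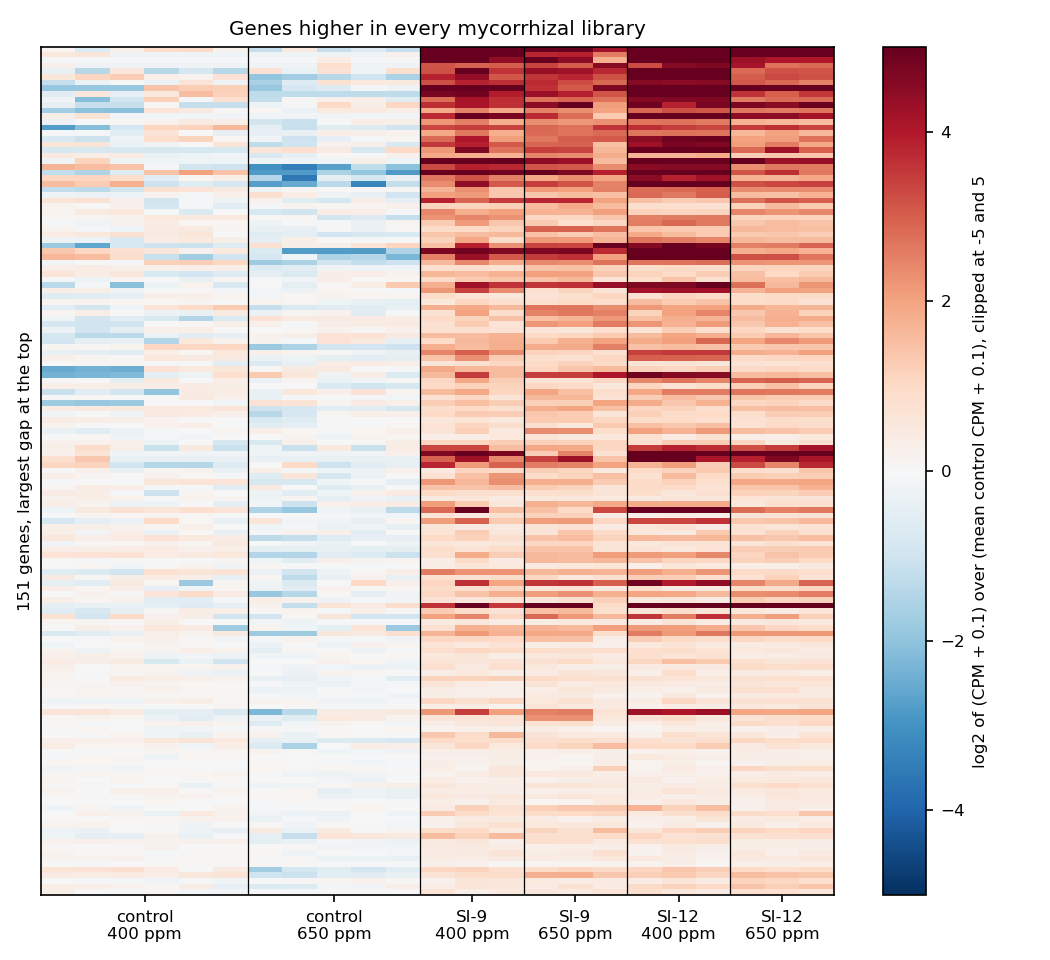
The 151 members (rows, largest gap at the top) in the 23 libraries (columns, grouped by root type and CO2), shown as the log2 of CPM plus 0.1 over the mean control CPM plus 0.1, clipped at -5 and 5. The darkest columns are the 3 SI-12 libraries at 400 ppm, whose members summed to 8086 to 8269 CPM, and the blue rows in controls at 650 ppm are members lower there than in controls at 400 ppm.

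Elevated CO2 alone asks how the members behave in roots without fungus, a contrast the rule did not use, although it favours genes that vary little within the control group. In control roots 41 of the 151 members were lower at 650 ppm and 8 were higher, while 22.5% of all tested genes were lower and 20% higher. The members' shares were 27.2% lower and 5.3% higher, and their median log2 fold change was -0.18, against -0.03 over all tested genes. With only controls numbered 1 to 12, 37 members were lower and 15 higher, and with only those numbered 13 to 24, 45 and 11. The shares of all tested genes called in these fits are not given here, so these counts are not compared with them. When each of the 10 sets was summed and counted as 1 replicate, edgeR called 1 member, against 1.45% of all genes, and DESeq2 on the same sets called 17 lower and 4 higher, against 10.6% of all genes in both directions.

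The largest falls in control roots were in genes with few reads there. Eucgr.C01747.1 had 34 reads over the 6 control libraries at 400 ppm, at 0.0663 to 0.614 CPM with a median of 0.26, and 0 reads in all 5 at 650 ppm, at least 8.92-fold lower when 3 counts in the whole group are taken as the floor (adjusted p = 0.000221). With controls numbered 1 to 12 alone its adjusted p was 0.074. Eucgr.C01882.1 had 0.199, 0.151, 0.365, 1.78, 2.74 and 1.77 CPM at 400 ppm and 0, 0, 0.134, 0.0833 and 0 CPM at 650 ppm, a log2 fold change of -4.10 (SE 0.89, adjusted p = 0.000851). Its 400 ppm values split by set, with libraries 1 to 3 all below libraries 4 to 6; the log2 fold change was -5.01 without control library 3 at 650 ppm, and with controls numbered 1 to 12 alone the adjusted p was 0.0706.

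The largest rises in control roots rested on few reads. Eucgr.C01027.1 had 0 reads in the 6 control libraries at 400 ppm and 15 reads in 4 of 5 libraries at 650 ppm, at least 6.35-fold higher by the same floor (adjusted p = 0.00505), and with controls numbered 13 to 24 alone its adjusted p was 0.095. Eucgr.I00938.1 had 0.0663, 0, 0, 0.127, 0 and 0 CPM at 400 ppm and 0.0828, 0.106, 0.336, 0.167 and 0.353 CPM at 650 ppm, with overlapping groups and a log2 fold change of 2.69 (SE 0.76, adjusted p = 0.00746). It was 3.34 without control library 4 at 400 ppm. The adjusted p was 0.447 with controls numbered 1 to 12 and 0.0678 with those numbered 13 to 24.

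In SI-9 roots 15 members rose under elevated CO2 and 12 fell, against 12% and 12% of all tested genes. The rule favours genes that vary little within the mycorrhizal libraries, a limit that also holds for SI-12 roots and between the strains. The median log2 fold change of the members was 0.03, as over all tested genes. On summed sets edgeR called 0 members and 0.0% of all genes. An unadjusted p under 0.05 was found for 17 members, and the share of all genes at that level is not given here. With DESeq2 the sets gave 5 higher and 7 lower members, against 7.35% of all genes.

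Eucgr.H02560.1 rose most in SI-9 roots, from 15.9, 16.9 and 18.3 CPM at 400 ppm to 65.4, 66.04 and 54.3 CPM at 650 ppm. The groups did not overlap, and the log2 fold change was 1.87 (SE 0.17, adjusted p = 2.1e-07). In SI-12 roots it had 20.8 to 21.9 CPM at 400 ppm and 24.1 to 26.0 CPM at 650 ppm. Unique reads made up 69.01%. Eucgr.H02641.1 rose from 8.88, 13.04 and 8.32 CPM to 24.1, 21.4 and 32.2 CPM (log2 fold change 1.37, SE 0.31, adjusted p = 0.00259), with 74.37% of reads unique to the gene.

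The largest falls in SI-9 roots were in Eucgr.C01093.1 and Eucgr.C01091.1, neighbours in the ID numbering. Eucgr.C01093.1 had 2.73, 17.6 and 2.82 CPM at 400 ppm and 0.168, 0.529 and 0.0836 CPM at 650 ppm, the last being 2 reads. Its log2 fold change was -4.82 (SE 0.68, adjusted p = 3.58e-05), which became -3.35 without SI-9 library 2 at 400 ppm and -5.92 without SI-9 library 2 at 650 ppm. Eucgr.C01091.1 fell from 12.3, 17.9 and 5.65 CPM to 2.46, 2.16 and 0.251 CPM (log2 fold change -2.86, SE 0.62, adjusted p = 0.00198). When only the groups compared were fitted, its adjusted p was 0.0578.

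In SI-12 roots 44 members fell under elevated CO2 and 12 rose, against 16.5% and 17.6% of all tested genes. The members' shares were 29.1% lower and 7.95% higher, with a median log2 fold change of -0.11, against 0.01 over all tested genes. Of the 20 near-silent members 10 fell and 0 rose, and their median log2 fold change was -1.68. Each SI-12 group is 1 set, so tests on summed sets have 1 sample at each CO2 level. They borrow the spread of SI-12 roots from the groups that have more than 1 set. They can settle neither these calls nor the excess of falls among the members. Their counts are given with the other settings below, and no share of all genes is set beside them.

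Eucgr.H03199.1 fell most, from 67.0, 59.98 and 58.5 CPM in SI-12 roots at 400 ppm to 5.31, 4.26 and 4.64 CPM at 650 ppm. The log2 fold change was -3.71 (SE 0.69, adjusted p = 0.000315), and 45.47% of its reads were unique to it, so its count is uncertain. Eucgr.D01560.1 fell from 25.5, 22.2 and 29.9 CPM to 2.34, 2.57 and 2.27 CPM (log2 fold change -3.44, SE 0.45, adjusted p = 7.06e-06), with 58.44% of reads unique to it. In SI-9 roots Eucgr.D01560.1 had 18.2, 19.6 and 17.8 CPM at 400 ppm and 17.7, 18.1 and 9.28 CPM at 650 ppm.

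Eucgr.E01158.1 and Eucgr.D00457.1 had the largest rises in SI-12 roots. Eucgr.E01158.1 went from 2.15, 1.81 and 1.90 CPM to 5.21, 6.84 and 6.21 CPM (log2 fold change 1.62, SE 0.47, adjusted p = 0.0103). Eucgr.D00457.1 went from 10.6, 9.89 and 10.4 CPM to 26.2, 22.8 and 25.2 CPM (log2 fold change 1.25, SE 0.30, adjusted p = 0.00288). In both genes all 3 libraries at 650 ppm were above all 3 at 400 ppm, while the SI-9 libraries of the 2 CO2 levels overlapped.

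Across the strains, 14 members were called under CO2 in both SI-9 and SI-12 roots, 11 of them in the same direction, 13 in SI-9 roots alone, 42 in SI-12 roots alone and 82 in neither. The members' shares were 9.27%, 7.28%, 8.61%, 27.8% and 54.3%, against 10.5%, 6.17%, 13.4%, 23.6% and 52.4% of all tested genes. Among the 41 members that fell in control roots, 7 (17.1%) rose and 3 (7.32%) fell in SI-9 roots, against 9.34% and 16.3% of the 6169 tested genes that fell in control roots. In SI-12 roots 5 of the 41 (12.2%) rose and 12 (29.3%) fell, against 14% and 25.1% of those genes. A call in one kind of root and not in another does not show that the changes differ; the difference itself is tested below against control roots.

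**Figure D4:**
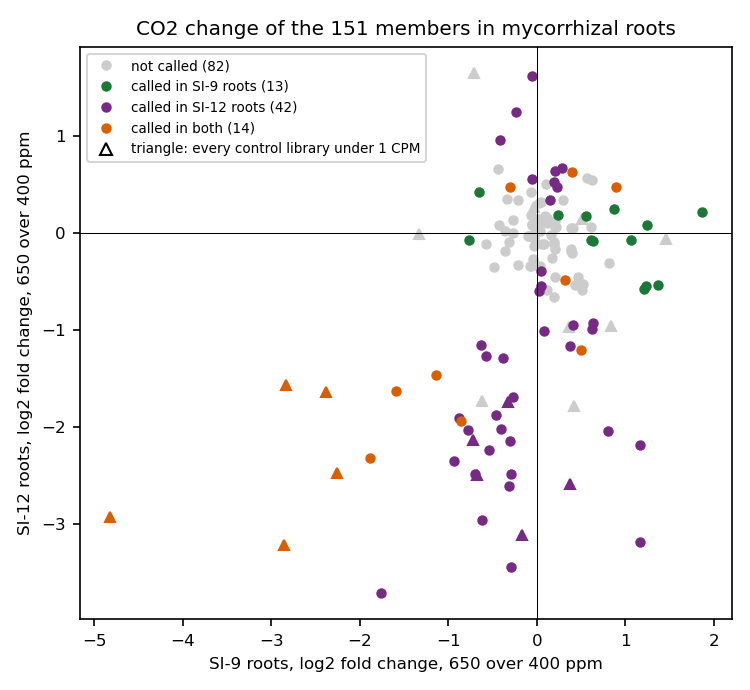
Log2 fold change of the 151 members from 400 to 650 ppm CO2 in SI-9 roots (horizontal) and SI-12 roots (vertical), coloured by the edgeR call, with triangles for the 20 members under 1 CPM in all controls. The 42 members called in SI-12 roots alone lie mostly below 0 on the vertical axis, and 10 of the 20 triangles were called lower in SI-12 roots.

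Between the strains at 400 ppm, 31 members had higher values in roots with SI-12 and 6 in roots with SI-9, against 12.6% and 15.4% of all tested genes. The members' median log2 difference was 0.24, against 0.01 over all tested genes. The difference was positive for 104 of 151 members and for 19 of the 20 near-silent ones. With library number as a block, 15 members were higher with SI-12 and 13 with SI-9, against 10.7% and 13.5% of all tested genes. The median log2 difference was then 0.10, against -0.01 over all tested genes. It was positive for 87 members and for 17 of the 20 near-silent ones. The excess of calls toward SI-12 thus depended on leaving library number out of the fit. The count of 37 was 17 without SI-9 library 1, 13 without SI-9 library 3 and 24 without SI-12 library 1, and it was 45 without SI-9 library 2, the library that stands apart. How the calls over all tested genes changed without these libraries is not given here, so a change particular to the members is not claimed. On summed sets edgeR called 0 members, with 6 at an unadjusted p under 0.05, against 0.0% of all genes, and DESeq2 called 0, with 10 at an unadjusted p under 0.05, against 2.92%.

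Eucgr.H03199.1 had 67.0, 59.98 and 58.5 CPM in SI-12 roots at 400 ppm and 5.47, 30.7 and 2.08 CPM in SI-9 roots. SI-9 library 2 lay between its group and the SI-12 libraries, and the log2 difference was 2.25 (SE 0.65, adjusted p = 0.0128). It was 4.13 (adjusted p = 5.44e-05) without SI-9 library 2, while the adjusted p was 0.0695 without SI-9 library 1 and 0.0548 without SI-9 library 3. Eucgr.G01536.1 had 24.2, 20.2 and 19.5 CPM in SI-12 and 2.51, 9.34 and 2.45 CPM in SI-9 roots at 400 ppm (log2 difference 2.12, SE 0.69, adjusted p = 0.0263). Its log2 difference was 3.08 without SI-9 library 2, and its adjusted p was 0.107 without SI-9 library 1, 0.126 without SI-9 library 3 and 0.067 without SI-12 library 1. With library number as a block, the adjusted p was 0.208 for Eucgr.H03199.1 and 0.252 for Eucgr.G01536.1.

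The members furthest below SI-9 roots at 400 ppm were Eucgr.E01158.1 and Eucgr.F03472.1. Eucgr.E01158.1 had 2.15, 1.81 and 1.90 CPM in SI-12 and 11.4, 5.94 and 8.77 CPM in SI-9 roots (log2 difference -2.15, SE 0.47, adjusted p = 0.00211, and 0.066 with library number as a block). Eucgr.F03472.1 had 26.7, 31.4 and 25.0 CPM in SI-12 and 63.8, 45.1 and 71.5 CPM in SI-9 roots (log2 difference -1.14, SE 0.24, adjusted p = 0.00126). Its log2 difference was -1.75 (adjusted p = 5.19e-06) with library number as a block. In both genes the strains did not overlap.

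At 650 ppm 9 members were higher with SI-12 and 13 were higher with SI-9, against 6.52% and 8.02% of all tested genes. For libraries left out at this CO2 level, too, the shares of all tested genes are not given here. The count of 22 was 14 without SI-9 library 1 or 2, 12 without SI-12 library 1, 14 without SI-12 library 2 and 13 without SI-12 library 3. With library number as a block it was 45, of which 11 were higher with SI-12 and 34 with SI-9, against 8.25% and 10.7% of all tested genes, so the near-even split became an excess toward SI-9. On summed sets edgeR called 0 members, with 9 at an unadjusted p under 0.05, against 0.0% of all genes, and DESeq2 called 2 higher and 3 lower, against 2.11%.

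Eucgr.C01093.1 had 3.88, 4.59 and 4.72 CPM in SI-12 and 0.168, 0.529 and 0.0836 CPM in SI-9 roots at 650 ppm (log2 difference 3.97, SE 0.67, adjusted p = 0.000402). The difference was 5.06 without SI-9 library 2 at 650 ppm, and the adjusted p was 0.0917 with library number as a block. Eucgr.C01090.1 had 6.85, 6.76 and 5.68 CPM in SI-12 and 1.51, 1.63 and 0.585 CPM in SI-9 roots (log2 difference 2.34, SE 0.45, adjusted p = 0.00131). With the block its difference was 3.76, at a weaker adjusted p of 0.0436. Both genes were higher in every SI-12 library.

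Lower in SI-12 roots at 650 ppm were Eucgr.D01560.1 and Eucgr.G01536.1. Eucgr.D01560.1 had 2.27 to 2.57 CPM against 9.28 to 18.1 CPM in SI-9 roots (log2 difference -2.68, SE 0.44, adjusted p = 0.000284). With the block its difference was -1.85 (adjusted p = 0.0229). Eucgr.G01536.1 had 2.34, 2.49 and 2.27 CPM against 9.17, 9.31 and 13.8 CPM (log2 difference -2.22, SE 0.70, adjusted p = 0.0366). With the block its difference was -2.84 (adjusted p = 0.0336). Leaving out any 1 of the 6 libraries of the 2 groups ended its call, with adjusted p from 0.0561 to 0.109. The SI-12 libraries of Eucgr.G01536.1 lay above the SI-9 libraries at 400 ppm and below them at 650 ppm, without overlap. Neither call is firm, since both were lost when some single libraries were left out. The call at 400 ppm was also lost with the block.

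The last tests ask whether the distance from control roots changed with CO2. The rule used that distance at both CO2 levels and favours genes that vary little within control and within mycorrhizal roots. Shares of all tested genes are therefore an uneven yardstick here. For SI-9, 33 members had a larger log2 distance from control roots at 650 than at 400 ppm and 5 a smaller one, against 14.9% and 13.3% of all tested genes. For SI-12, 29 had a larger and 26 a smaller distance, against 18.1% and 15%. Both tests share the control libraries. With controls of the matching library numbers the counts were 34 larger and 12 smaller for SI-9, and 36 and 30 for SI-12. For these fits too the shares of all tested genes are not given here. On summed sets edgeR called 0 members for SI-9, with 24 at an unadjusted p under 0.05, against 0.334% of all genes, and 0 for SI-12, with 21, against 0.0695%. DESeq2 on the sets called 13 larger and 4 smaller for SI-9, against 6.65%, and 3 larger and 7 smaller for SI-12, against 4.58%.

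Eucgr.H04003.1 was the best covered of the members with extreme values in these tests. It rose in control roots from 6.05 to 12.7 CPM at 400 ppm, with a median of 9.6, to 18.1, 19.3, 24.9, 25.7 and 21.2 CPM at 650 ppm. In SI-9 roots it had 46.0, 46.0 and 52.5 CPM at 400 ppm and 31.2, 32.7 and 38.7 CPM at 650 ppm, and in SI-12 roots 47.0, 60.7 and 54.7 CPM at 400 ppm and 37.9, 49.4 and 40.6 CPM at 650 ppm. The control groups did not overlap, and their log2 fold change was 1.26 (SE 0.17, adjusted p = 4.26e-06). Its log2 distance from control roots changed by -1.75 (SE 0.28, adjusted p = 8.97e-05) for SI-9 and by -1.62 (SE 0.28, adjusted p = 0.000155) for SI-12.

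Eucgr.C01882.1 had a larger distance at 650 ppm for SI-9, by 3.48 on the log2 scale (SE 1.11, adjusted p = 0.0233). In SI-9 roots it had 26.2, 32.5 and 19.7 CPM at 400 ppm and 22.1, 17.9 and 10.5 CPM at 650 ppm, while control roots went from 0.151 to 2.74 CPM, with a median of 1.07, to 0 to 0.134 CPM. The change was 4.39 without control library 3 at 650 ppm. The adjusted p was 0.0546 without control library 5 at 650 ppm, 0.0513 without SI-9 library 3 at 400 ppm and 0.16 with controls numbered 1 to 12.

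For SI-12, Eucgr.A01731.1 had a smaller distance at 650 ppm, by -4.73 on the log2 scale (SE 0.86, adjusted p = 0.000284). Its SI-12 libraries went from 18.4, 15.4 and 19.2 CPM at 400 ppm to 1.75, 2.25 and 2.19 CPM at 650 ppm, while controls went from 0, 0.0236 and 0.284 CPM as lowest, median and highest to 0.106, 0.331 and 0.353 CPM. The value was -5.75 without control library 3 at 400 ppm and -6.51 with controls numbered 13 to 24. Eucgr.E01158.1 had a larger distance by 2.04 (SE 0.60, adjusted p = 0.0123), with controls at 0.318 to 1.25 CPM at 400 ppm and 0.336 to 0.916 CPM at 650 ppm. With controls numbered 13 to 24 the value was 1.52 (adjusted p = 0.104).

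For Eucgr.C01747.1 and Eucgr.C01027.1 a control group had 0 reads, so the size of the fitted change depends on the small count the fit adds and is no bound. Eucgr.C01747.1 had 6.38, 6.71 and 3.57 CPM in SI-9 roots at 400 ppm, 4.69, 3.497 and 2.05 CPM in SI-9 roots at 650 ppm, 15.2, 13.5 and 12.9 CPM in SI-12 roots at 400 ppm and 2.87, 1.85 and 2.71 CPM in SI-12 roots at 650 ppm. Eucgr.C01027.1 had 0.683, 4.38 and 1.04 CPM, then 1.84, 1.75 and 0.460 CPM, then 5.78, 6.28 and 6.64 CPM, then 1.17, 3.22 and 1.31 CPM in the same order of groups. Both genes were at their highest in SI-12 roots at 400 ppm.

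Position in the ID numbering was not part of the rule. Within 5 ID numbers of each other, 17 members formed 7 runs, 3 of them with 3 members. Among the 115 that met the rule with TMM scaling, 14 members formed 6 runs and 2 runs had 3 members, since Eucgr.I01442.1 and Eucgr.A02091.1 dropped out. Under the unscaled rule, the 120 genes of the reversed rule formed 9 runs of 18 genes and 0 of 3 members. How many of all tested genes lie in such runs is not given here, so no excess of runs among the members is claimed. How far IDs follow the position on the genome was not checked, since the reference table did not match. Runs of genes with shared reads can also move together in the counts, and the share of reads unique to each gene is given for that reason.

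The run of Eucgr.C01090.1, Eucgr.C01091.1 and Eucgr.C01093.1 was near silent in controls, with 5, 5 and 4 reads in all 11 libraries. Its 3 members averaged, with SD over 3 libraries, 18.97 ± 1.78, 25.6 ± 0.389 and 33.2 ± 3.29 CPM with SI-12 at 400 ppm, and 6.43 ± 0.649, 2.75 ± 0.840 and 4.40 ± 0.454 CPM at 650 ppm. All 3 fell in both strains under elevated CO2, with log2 fold changes in SI-12 roots of -1.57 (SE 0.42, adjusted p = 0.007), -3.21 (SE 0.62, adjusted p = 0.00045) and -2.93 (SE 0.57, adjusted p = 0.000481). In SI-9 roots Eucgr.C01090.1 changed by -2.83 (SE 0.46, adjusted p = 0.000142). Unique reads made up 82.71%, 77.49% and 99.68%. The next listed ID below, Eucgr.C01089.1, was picked after its values were seen. It had 0 reads in all 11 controls and reads in 8 of 12 mycorrhizal libraries, up to 2.23 CPM, and it is no member because 4 mycorrhizal libraries have none.

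The run of Eucgr.H03605.1, Eucgr.H03607.1 and Eucgr.H03609.1 was expressed in controls and fell there under elevated CO2. Eucgr.H03607.1 had 65.2 to 128.6 CPM in controls at 400 ppm, with a median of 98.7 and libraries 4 to 6 above 1 to 3, and 17.1, 21.1, 32.9, 32.0 and 30.2 CPM at 650 ppm. It had 187.1 to 219.5 CPM in SI-9 roots at 400 ppm, 224.0, 235.1 and 355.4 CPM in SI-9 roots at 650 ppm, 171.3 to 187.7 CPM in SI-12 roots at 400 ppm and 154.4 to 163.6 CPM in SI-12 roots at 650 ppm. In control roots the log2 fold changes of the 3 were -1.19 (SE 0.14, adjusted p = 7.12e-07), -1.85 (SE 0.21, adjusted p = 5.22e-07) and -1.90 (SE 0.25, adjusted p = 4.84e-06). None of the 3 passed the test under CO2 in SI-9 or SI-12 roots, and their distance from control roots was larger at 650 ppm for both strains. For SI-9 it grew by 1.58, 2.25 and 2.42 on the log2 scale, with adjusted p of 2.62e-05, 4.72e-05 and 0.000135. Unique reads made up 81.36%, 50.61% and 76.59%, and the genes between them, Eucgr.H03606.1 and Eucgr.H03608.1, are no members and had 70.35% and 52.24%.

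The run of Eucgr.I01442.1, Eucgr.I01444.1 and Eucgr.I01445.1 fell in control roots and rose in SI-9 roots under elevated CO2. Eucgr.I01445.1 had 10.7 to 12.8 CPM in controls at 400 ppm, with a median of 11.5, and 3.89, 4.56, 5.48, 5.50 and 4.55 CPM at 650 ppm. SI-9 roots had 15.03, 16.3 and 14.4 CPM at 400 ppm and 29.0, 32.3 and 22.8 CPM at 650 ppm, and SI-12 roots had 17.1, 18.1 and 14.8 CPM and then 22.5, 23.9 and 23.4 CPM. No pair of groups that differ in CO2 alone overlapped. The log2 fold changes of the 3 were -1.14 (SE 0.11, adjusted p = 1.08e-07), -0.63 (SE 0.07, adjusted p = 9.42e-07) and -1.25 (SE 0.11, adjusted p = 1.39e-08) in control roots. They were 0.87 (SE 0.15, adjusted p = 0.000261), 0.55 (SE 0.10, adjusted p = 0.000421) and 0.89 (SE 0.14, adjusted p = 0.000122) in SI-9 roots. The difference between these changes passed the test in all 3, at 2.01, 1.18 and 2.14 on the log2 scale (adjusted p = 1.35e-07, 6.51e-07 and 2.89e-08). In SI-12 roots Eucgr.I01445.1 rose (0.47, SE 0.14, adjusted p = 0.0124), and the other 2 did not pass. Unique reads made up 94.43%, 97.79% and 95.78%, and Eucgr.I01443.1 between them, with 77.04%, is no member.

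**Figure D5:**
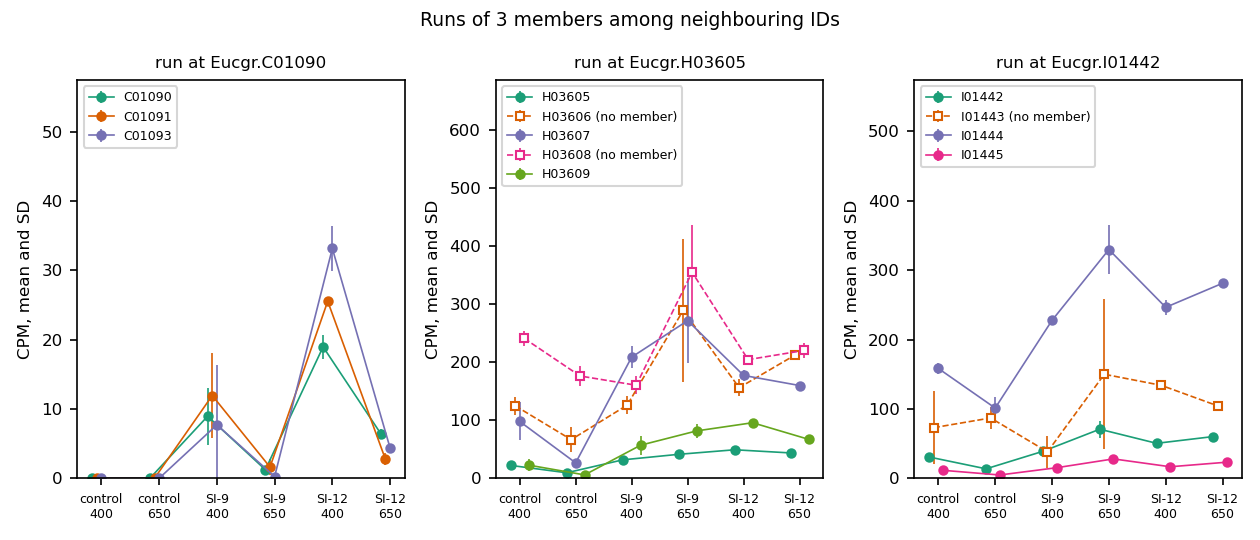
Mean CPM with SD (n = 6, 5, 3, 3, 3 and 3 libraries from left to right) of the 3 runs of 3 members, with listed genes between them that are no members as open squares on broken lines. The C01090 run is near 0 in controls and highest in SI-12 roots at 400 ppm, the H03605 run and the I01442 run fall in controls from 400 to 650 ppm, and the I01442 run is highest in SI-9 roots at 650 ppm.

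Gene length and the share of unique reads were compared with all tested genes. The members' median length was 1425 bases against 1451, and 33 of them (21.9%) had under 90% unique reads, against 21.4% of all tested genes. The share was 8 of 20 (40%) among the near-silent members, whose median length was 978.5 bases, and 7 members had under 60% unique reads. By the letter of the ID, 28 members (18.5%) carried H, against 11.5% of tested genes, and 5 (3.31%) carried L, against 5.69%.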

How the data were processed

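RNA was sequenced as read pairs from 23 root libraries, per the labels' protocols. Each deposited table gives a gene's length, a count of all its reads, a count of those unique to it and the authors' RPKM, which for all 36376 genes equals gene reads scaled by length and library total within 1%. The aligner, the genome build and whether strand was used: not given in the sources used here. Counts of total gene reads were fitted as deposited with edgeR 4.0.16 (limma 3.58.1, R 4.3.3): TMM factors, filterByExpr by group, 1 mean per group, 17 residual degrees of freedom. Eucgr.B01584.1, with 0.157% to 16.196% of a library's gene reads, stayed in that fit and was left out of the printed CPM, which carry no TMM factors. RPKM was used only to compare levels between genes. Standard errors are the absolute log2 change over the root of the F statistic. Gene IDs were looked up in the reference table (assembly ASM1654582v1), with 0 matches, so gene lists planned as patterns on descriptions were not applied.

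The members and lists were chosen with earlier results of these data known. Named are the 6 members with the largest gap, the 6 with the highest mean over the mycorrhizal groups, the 3 with the smallest gap, the 2 largest called rises and falls of each of 7 contrasts, and the runs of 3 members within 5 ID numbers, 35 members in all. Alternatives were other factors, filters, DESeq2 1.42.0, unique reads, fits of the groups compared, blocks, and each library left out. Libraries of a group under a coefficient of variation of 0.2 were also summed into 10 sets, with 4 residual degrees of freedom in edgeR. Controls of 1 range of library numbers, DESeq2 on sets, and sets without SI-9 library 2 at 400 ppm were added after seeing the data. The test was also run on simulated counts, with each library drawn independently and no near-identical sets. It recovered a share of 0.36 to 0.52 of 2-fold changes and 0.64 to 0.83 of 4-fold changes. It therefore cannot show how the test behaves with near-identical libraries. Figures used matplotlib 3.10.9.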

Additional observations from a re-analysis of the deposited data

Results flagged for a closer look

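The control values of the 35 named members were searched at each CO2 level for a library far from the others of its group. In 67 such groups of values 9 libraries were found. Chance gives about 1 in 20 for values that vary continuously, but in 7 of the 9 every other library of the group had 0 reads, where any read is found, so that share does not apply to this count. Eucgr.A01731.1 stood at 0.284 CPM in control library 3 at 400 ppm. Eucgr.C01090.1 and Eucgr.C01093.1 each stood at 0.0353 CPM in control library 5 at 650 ppm, which is 1 read. Eucgr.C01091.1 stood at 0.151 CPM in control library 2 at 400 ppm, which is 4 reads, and at 0.0417 CPM in control library 4 at 650 ppm, which is 1 read. Eucgr.D00514.1 stood at 0.0336 CPM in control library 3 at 650 ppm, also 1 read. Eucgr.H01083.1 stood at 0.212 CPM in control library 2 at 650 ppm, which is 2 reads. Eucgr.L01870.1 stood at 0.0332 CPM in control library 1 at 400 ppm and at 0.101 CPM in control library 3 at 650 ppm, which are 1 and 3 reads.

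The CO2 change differed from that of control roots, by edgeR's test of the difference, in the members named for those tests. For SI-9 roots the log2 difference was 4.65 for Eucgr.C01747.1, 3.48 for Eucgr.C01882.1, -5.08 for Eucgr.C01027.1 and -1.75 for Eucgr.H04003.1. For SI-12 roots it was 2.84 for Eucgr.C01747.1, 2.04 for Eucgr.E01158.1, -6.19 for Eucgr.C01027.1 and -4.73 for Eucgr.A01731.1. The values for Eucgr.C01747.1 and Eucgr.C01027.1 depend on a control group with 0 reads, and the SI-12 call of Eucgr.C01747.1 was lost with DESeq2 (adjusted p = 0.102).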

How the results depend on the processing

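With the lowest mycorrhizal value at least 1.5 times the highest control value 24 genes met the rule, with means of near-identical libraries 748, and with each library left out 156 to 216. Means of sets and a library left out both relax the rule, and all 151 members were kept under them. The other changes of the rule gave 115 to 154 genes: 115 with TMM factors, 115 with Eucgr.B01584.1 kept, 154 with unique reads, 143 with a highest CPM of at least 5 and 152 with no minimum. For called members, summed sets gave 1 for CO2 in control roots and 0 for the other 6 contrasts with edgeR, 0 for all 7 without SI-9 library 2 at 400 ppm, and with DESeq2 21, 12 and 7 for CO2 in control, SI-9 and SI-12 roots, 0 and 5 between the strains at 400 and 650 ppm, and 17 and 10 for the CO2 dependence of the SI-9 and SI-12 differences. At least 15 members had an unadjusted p under 0.05 in each edgeR test without that library, except 11 between the strains at 650 ppm. The share of all genes at that unadjusted level is not given here, so those counts are not compared with it. The cause of the lower counts of calls was not tested, and sets leave fewer samples. Fits of only the groups compared gave 16 for CO2 in SI-9 roots and 58 between the strains at 400 ppm, and library number as a block gave 45 between the strains at 650 ppm; the cause was not tested. With each library left out the counts were 45 to 55, 18 to 34 and 50 to 61 for CO2 in control, SI-9 and SI-12 roots, 13 to 46 and 12 to 25 between the strains at 400 and 650 ppm, and 32 to 45 and 42 to 58 for the 2 CO2 dependences. For fits of only the groups compared and for libraries left out, shares of all genes are not given here. Those counts of members are therefore not compared with all genes.

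Same-numbered libraries of different groups did not deviate together (47 pairs, r from -0.127 to 0.115), so the numbers do not pair them. With the replicate number as a block the counts were 52, 27, 57, 42, 26, 37 and 57 in the order above, and shares of all genes with this block are not given here. Of 28 named calls, all 28 were lost with edgeR on sets, 14 with DESeq2 on sets, 4 with library number as a block, and 1 each with DESeq2 and with no filter. Fits of only the groups compared tested 24 of the 28 and lost 2, and the other 4, for CO2 in control roots, had too few reads there to be tested. With 1 library left out, Eucgr.C01747.1 lost its call for the SI-12 difference in most cases, with adjusted p up to 0.0774. No value changed sign under the alternatives run. Members under 1 CPM in controls rest on few reads there, so their distance from mycorrhizal roots is limited by depth.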
